A study of Mus musculus with 9 samples.

Results

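The adult (8w) and the late embryonic (E18) mouse heart were compared across all measured genes. The comparison takes 6 of the 9 libraries of the series, 3 labelled 8w and 3 labelled E18, chosen by their stage labels alone. The series title places these transcriptomes beside work on extrachromosomal circular DNA in mouse hearts. All animals are labelled wild type and the RNA was total RNA of heart tissue, although the labels also use the word cardiocytes, embryonic for the E18 libraries and adult for the 8w libraries. The other 3 libraries, from neonatal (3d) hearts, entered the fits through the estimate of spread and the expression filter that chose the tested features. They are otherwise given as a point on the way. The labels call the libraries of a stage biological replicates and do not say whether each came from 1 animal or from a pool, so p-values measure the spread between these libraries. The strain, the sex and the chamber are unknown.

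Around birth the mouse heart passes from growth by cell division to growth by cell enlargement. Its muscle cells are known to exchange fetal for adult forms of contractile proteins, to turn from glucose and lactate to fatty acids as fuel, and to fill with mitochondria and calcium-handling membranes. Thyroid hormone, oxygen and fatty acid supply all rise over the same period. In RNA of a whole organ, fewer cells of a type and less RNA of a gene per cell cannot be told apart.

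The deposited tables gave FPKM (fragments per transcript length and library size) for coding and lncRNA genes and junction reads for circRNAs. The compared libraries held 12215457 to 15613476 estimated fragments and 3281 to 4494 circRNA junction reads. The median of log2(FPKM + 1) over the tested coding genes was 3.57 to 3.58 at E18 and 3.19 to 3.27 at 8w. The 20 most abundant coding genes of each library held 12.4% ± 0.0994 (SD, n = 3) of coding FPKM at E18 and 20.6% ± 0.543 (n = 3) at 8w. Every library was centred to its median, and all log2 changes below are 8w minus E18 on that scale unless a sentence says otherwise. On the deposited scale each change is lower by 0.356.

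Changes were spread over the coding transcriptome. Of 11915 tested genes 3655 (30.7%) were higher at 8w and 3186 (26.7%) were lower (limma, adjusted p under 0.05), and the median change over all tested genes was 0.03. On the deposited scale the split was 2117 higher and 5638 lower. Counts of gene lists on the centred scale below are to be set beside 30.7% higher and 26.7% lower. Most changes were small: 1384 of the higher and 1057 of the lower genes changed at least 2-fold, and 107 and 133 at least 8-fold. For 3758 genes (31.5%) the 95% interval of the change lay within 1.5-fold on either side of no change. At 3d the mean of 67.2% of the higher genes and 67.3% of the lower genes lay between the values at E18 and 8w, and the median gene had covered 17.9% and 19% of the way. On the centred scale the 3 libraries of one stage lay wholly above those of the other in 67.4% of tested genes.

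The 12 largest rises were taken among genes whose libraries did not overlap between stages. Ces1d, a carboxylesterase that hydrolyses lipid esters (chr8:93166068-93197838, GRCm38), stood at 0.0389, 0.190 and 0.476 FPKM in the E18 libraries and at 42.9, 71.8 and 65.5 at 8w. Tuba8, an alpha-tubulin of muscle and testis, stood at 0.208, 0.285 and 0.392 at E18 and at 68.2, 44.1 and 62.9 at 8w. In both genes every adult library was far above every E18 library. The log2 changes were 5.97 ± 0.189 (SE) for Ces1d and 5.85 ± 0.213 for Tuba8, with adjusted p of 1.87e-09 and 3.65e-09. The other rises among the 12 largest were Rpl3l (5.75), Art1 (5.46), Xirp2 (5.41), Cd74 (5.18), Trim72 (4.96), Lrtm1 (4.86), Ucp3 (4.86), Slc25a34 (4.80), Trim54 (4.74) and Fbp2 (4.57). Art1 is a muscle ADP-ribosyltransferase, Trim72 a membrane repair protein, Ucp3 a mitochondrial carrier of the uncoupling family and Fbp2 the muscle form of fructose bisphosphatase. The adult libraries differed among themselves for Ucp3, at 59.4, 16.5 and 20.6 FPKM.

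The 12 largest falls were taken by the same rule. Tnni1, the slow skeletal troponin I that the fetal heart uses (chr1:135779434-135810989), fell from 794, 811 and 778 FPKM to 3.80, 3.09 and 0.525. Myh7, the slow beta-myosin heavy chain (chr14:54970684-54994626), fell from 2024, 1801 and 1924 to 22.9, 21.9 and 19.5. Every adult library was far below every E18 library in both genes. Their log2 changes were -7.64 ± 0.332 and -6.06 ± 0.182, with adjusted p of 1.10e-08 and 1.39e-09. Mest (-5.53), Dlk1 (-5.41), Igf2 (-5.24) and Plagl1 (-4.83) are imprinted, and Cks2 (-5.16), Ccna2 (-4.94) and Top2a (-4.63) act in the dividing cell. Bex4, Bex1 and Cited1 completed the 12. Cks2 was near 0 in 2 adult libraries and at 1.16 FPKM in the other.

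**Figure D1:**
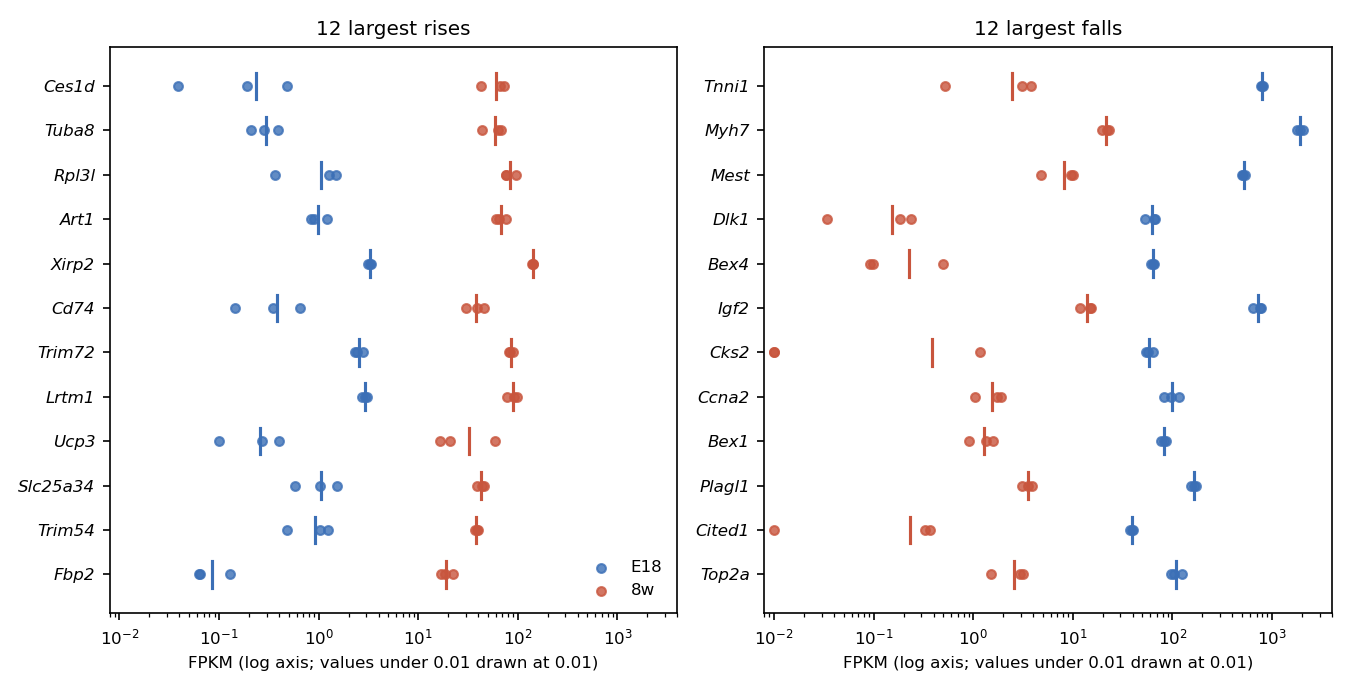
FPKM in each E18 (blue) and 8w (red) library, on a log axis, for the 12 genes with the largest rises and the 12 with the largest falls; each point is 1 library and each bar a group mean. The genes were chosen for groups that do not overlap, and Tnni1 and Myh7 moved from at least 778 FPKM to at most 22.9.

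A small set of genes passed between barely measured and clearly expressed. With under 0.5 FPKM in all 3 libraries of one stage and at least 5 in all 3 of the other, 28 genes passed the higher limit at 8w and 55 at E18. Those on in the adult included Itgb6, an integrin subunit, at 18.3, 17.9 and 16 FPKM against at most 0.382 at E18. Myh14, a nonmuscle myosin heavy chain, was also among them. Those on at E18 included the mitotic genes Aurkb, Hmmr and Ndc80. Outside mitosis, Gipr, the receptor of the incretin hormone GIP, stood at 19, 14.9 and 16.7 FPKM at E18 and at 0.163, 0.036 and 0.236 at 8w. Capn6, a calpain-family protein that binds microtubules, stood at 31.0, 24.9 and 29.4 FPKM and then at 0.362, 0.477 and 0.396.

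Of 38 tested sarcomere genes 25 were higher and 6 lower, with a median log2 change of 0.79 against 0.03 over all tested genes, and under quantile normalization 18 were higher and 10 lower with a median of 0.17. Xirp2, an actin-binding protein of the intercalated disc, stood at 3.16, 3.35 and 3.25 FPKM at E18 and at 138, 141 and 142 at 8w. Tcap, which anchors titin at the Z-disc, rose by 3.44 on the log2 scale, and Myot, another Z-disc protein, by 3.22. Tpm2, the beta-tropomyosin, fell by 1.98 and Acta2, smooth muscle actin, by 1.67. Titin itself, Ttn, was listed at 0 in all 9 libraries of the coding table, which can be a failed estimate, so it has no level here.

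The already abundant sarcomere genes depended on the scale. Myl2, the ventricular regulatory light chain, stood at 7501, 6310 and 7082 FPKM at E18 and at 8738, 8111 and 9087 at 8w. It rose by 0.67 on the centred scale and its direction turned under quantile normalization, at -0.10. Myl3 behaved alike, at 1.15 and -0.19. Actc1, cardiac actin, was at 0.30 on the centred scale with adjusted p of 0.0632 and at -1.01 under quantile normalization. In FPKM the sarcomere list held 8.87% ± 0.154 of the coding total at E18 and 13.3% ± 0.274 at 8w (exact two-sided permutation p = 0.1, the smallest that 3 against 3 allows). Of 50 gene sets tested in this way 43 reached that p.

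Pairs of related genes, one known as fetal or general and the other as adult or muscle type, changed over in most cases. Of 31 pairs, the first fell and the second rose in 18, and the reverse pattern was found in 0. The pairs were written with earlier results of these data known, and the counts are from the centred scale. Among the second genes counted as rises, Cacna1c was at -0.04 on the deposited scale. Under quantile normalization Ckm was at -0.30 and Casq2 at -0.02. The second gene's share of the pair was higher at 8w in 28, and the majority of the pair passed to the second gene in 12. Myh6, the fast alpha-myosin heavy chain next to Myh7 (chr14:54941921-54966927), held 31.4%, 44.0% and 35.4% of the pair's FPKM at E18 and 99.6%, 99.7% and 99.7% at 8w. It rose from 926, 1417 and 1056 FPKM to 5872, 7264 and 7166. Tnni3, the adult cardiac troponin I, was already the larger partner at E18, at 73.2% ± 2.38, and held at least 99.9% in each 8w library. The exact permutation p was 0.1 for both shares, as it was for most of the 31 pairs.

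The same change ran through metabolic and housekeeping enzymes. Slc2a4, the insulin-responsive glucose carrier, took 38.8% ± 1.43 of the pair with Slc2a1, the general carrier, at E18 and 97.2% ± 0.353 at 8w. Eno3, the muscle enolase, went from 48.4% ± 0.738 to 90.4% ± 0.411 against Eno1. Ldhb, the heart lactate dehydrogenase subunit, went from 32.4% ± 0.521 to 66.2% ± 1.20 against Ldha. Muscle forms of cytochrome oxidase subunits gained on the general forms, Cox8b from 46.7% to 91.2%, Cox7a1 from 44.0% to 77.9% and Cox6a2 from 57.8% to 93.7%. The general forms Cox8a and Cox6a1 fell, while Cox7a2, the partner of Cox7a1, was itself called higher at 0.51. Slc25a4, the heart ADP/ATP carrier, went from 50.5% ± 1.46 to 82.3% ± 1.18 against Slc25a5. Hk2 went from 28.9% to 65.0% against Hk1.

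Outside metabolism the changeover reached ribosomes, microtubules, chromatin and pacemaker channels. Rpl3l, a muscle copy of the ribosomal protein gene Rpl3, held 0.124%, 0.484% and 0.516% of the pair at E18 and 49.4%, 49.4% and 59.8% at 8w, so the adult libraries lay on both sides of an even split. Tuba8 went from 0.364% ± 0.112 to 68.5% ± 8.78 against Tuba1a. Ezh1 went from 26.5% ± 1.73 to 70.3% ± 4.48 against Ezh2, the other catalytic subunit of Polycomb complex PRC2. Hcn2 went from 13.2% ± 3.23 to 83.0% ± 5.62 against Hcn4, whose own level was at 0.29 with adjusted p of 0.258. The shares overlapped between the stages for Smarcd1 with Smarcd3, Dnmt3b with Dnmt3a, Sln with Pln, Myl7 with Myl2 and Kcnj8 with Kcnj11. Actc1 lost a little of its share to Acta1, from 99.7% ± 0.0586 to 98.1% ± 0.820, with Acta1 higher by 2.89.

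**Figure D2:**
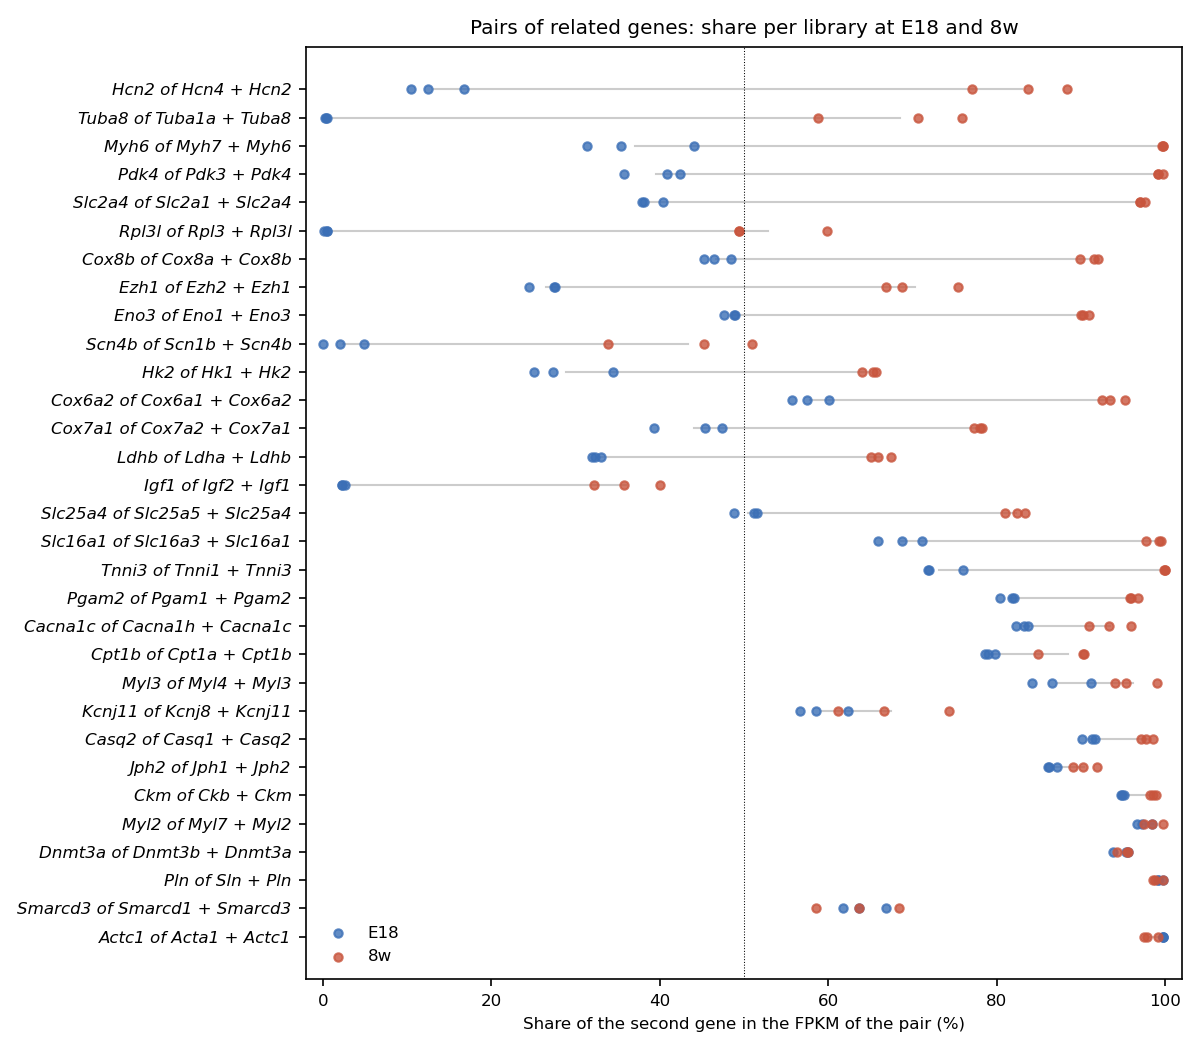
Share of the second gene in the summed FPKM of 31 pairs, in percent, for each E18 (blue) and 8w (red) library; grey lines join the group means. The shares of Hcn2, Tuba8, Myh6, Pdk4 and Slc2a4 moved farthest, and those of Smarcd3, Pln and Dnmt3a overlap between stages.

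Atrial genes varied between libraries of the same stage, and Myl7, Nppa, Myl4 and Sln had no call. Myl7, the atrial regulatory light chain, stood at 260, 100 and 204 FPKM at E18 and at 224, 133 and 28.5 at 8w. Nppa, the atrial natriuretic peptide, stood at 338, 191 and 279 and at 489, 290 and 118. In both genes the second E18 library and the third 8w library were the lowest of their stage, and the same held for Myl4 (-1.03, adjusted p = 0.136) and Sln (2.04, adjusted p = 0.0531). Bmp10, a growth factor of trabecular and atrial muscle, stood at 27.5, 22.2 and 24.0 FPKM at E18 and at 2.65, 3.19 and 0 at 8w, a log2 change of -3.0 with adjusted p of 0.000188. How much atrium each library held was not tested.

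Of 28 tested calcium and T-tubule genes 16 were higher and 8 lower, beside 30.7% and 26.7% of all tested genes. Their median was 0.42. On the deposited scale 10 were higher and 9 lower with a median of 0.06. Atp2a2, the SERCA pump that refills the sarcoplasmic reticulum, stood at 815, 971 and 865 FPKM at E18 and at 3839, 3966 and 4081 at 8w. Pln, its inhibitor, rose from 1085, 1176 and 1125 to 2893, 2858 and 2926. Slc8a1, the sodium-calcium exchanger that removes calcium across the cell surface, went the other way, from 365, 331 and 359 to 128, 117 and 127. The groups did not overlap in any of the 3 genes, as in 67.4% of all tested genes. The log2 changes were 2.52, 1.71 and -1.14. The list further held Hrc, a calcium-binding protein of the reticulum (2.97), Ryr2, the release channel (1.35), and Casq1 (-1.63) and Cacna1h (-1.0), a skeletal calsequestrin and a T-type calcium channel. Cacna1c, the L-type channel, was called at 0.31 with adjusted p of 0.0388, was not called without any 1 of the E18 libraries or the first or the third 8w library, and was at -0.04 on the deposited scale.

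Ion channels of the surface membrane rose more evenly. Of 24 tested 19 were higher and 2 lower, with a median of 1.74. Hcn2, a pacemaker channel, stood at 0.21, 0.199 and 0.348 FPKM at E18 and at 7.02, 7.95 and 7.51 at 8w. Kcnd3, a channel of the transient outward potassium current, rose by 2.32. Scn4b, a sodium channel beta subunit, rose by 2.81 and Scn4a, the skeletal muscle sodium channel, by 3.62. Kcne1, a beta subunit of the slow delayed rectifier, was the main exception and fell from 78.8, 80.0 and 73.2 FPKM to 13.9, 12.2 and 11.0. Its partner Kcnq1 was called lower at -0.32, and that call was lost without any 1 of the E18 libraries, the first or the second 8w library.

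Genes of fatty acid use were higher with almost no exception. Of 34 tested genes of fatty acid uptake and oxidation 33 were higher and 0 lower, with a median of 1.66. Lpl, which frees fatty acids from circulating lipoproteins, stood at 188, 202 and 185 FPKM at E18 and at 1392, 1423 and 1546 at 8w. Cd36, a fatty acid carrier, rose from 150, 154 and 156 to 613, 525 and 514. Plin5, a coat protein of lipid droplets, rose by 4.17, and Hadha, a subunit of the trifunctional protein of beta-oxidation, by 1.47. Cpt1a, the liver form of the entry enzyme, was the single gene without a call, at 0.14. The list held 1.06% ± 0.00696 of coding FPKM at E18 and 2.91% ± 0.106 at 8w.

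Glycolysis genes went in both directions. Of 26 tested genes 10 were higher and 14 lower, beside 30.7% and 26.7% of all tested genes, with a median of -0.54, or -0.90 on the deposited scale. Slc2a1 fell from 34.7, 34.1 and 34.0 FPKM to 3.10, 3.63 and 3.27, and Slc16a3, a lactate exporter, fell by 3.54. Pfkm, the muscle phosphofructokinase, rose by 2.08, and Pfkfb2, the heart isoform of the enzyme that makes its activator, by 2.70. The 26 genes together held 1.48% ± 0.0593 of coding FPKM at E18 and 1.34% ± 0.115 at 8w (exact permutation p = 0.2).

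Mitochondrial oxidation rose on a broad front. Of 33 tested genes of pyruvate entry and the tricarboxylic acid cycle 31 were higher, of 77 nuclear-encoded subunits of the respiratory chain and ATP synthase 69, and of 25 genes of ketone and branched-chain amino acid oxidation 24. The medians were 1.02, 0.96 and 1.21. The genes called lower in these lists were Pdk3, Pdk1, Cox6a1 and Cox8a. Pdk4, the kinase that shuts pyruvate out of the mitochondrion, stood at 25.3, 19.5 and 22.9 FPKM at E18 and at 840, 323 and 258 at 8w. Its rise of 4.50 held in every leave-out, and the first 8w library was highest for it, for Ucp3 and for the clock repressor Nr1d1, at 30.7 against 15.3 and 13.2 FPKM. Pdk1 was called at -0.45, a call that was lost without the second or the third E18 library or the first or the second 8w library.

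Genes that pass energy on were taken from a list of creatine and adenylate kinase genes. Of 14 tested 8 were higher and 3 lower, beside 30.7% and 26.7% of all tested genes, with a median of 0.54. On the deposited scale 7 were higher and 5 lower with a median of 0.18. Ckmt2, the mitochondrial creatine kinase, stood at 47.5, 72.6 and 57.3 FPKM at E18 and at 877, 1054 and 1142 at 8w. Mb, myoglobin, rose from 902, 1045 and 970 to 7402, 7582 and 8250. The log2 changes were 4.46 and 3.35. Ckm, the muscle creatine kinase, was called at 0.41, lost its call without the third 8w library, and turned to -0.30 under quantile normalization.

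Of 24 nuclear receptors and coactivators of metabolism 19 were higher and 1 lower, with a median of 0.70, and on the deposited scale 12 were higher and 4 lower with a median of 0.34. Rxrg, a retinoid X receptor, stood at 0.394, 0.506 and 0.457 FPKM at E18 and at 25.1, 22.8 and 26.9 at 8w. Thrb, a thyroid hormone receptor, rose from 0.626, 0.446 and 0.572 to 8.48, 9.38 and 9.43. The more abundant receptor Thra stayed within 1.5-fold, at -0.20 with a 95% interval of -0.46 to 0.05. Ppara (1.31), Ppargc1a (0.78) and Esrra (0.74), regulators of fatty acid oxidation and mitochondrial genes, were higher by modest amounts. Nrf1 was the called fall at -0.59, and its call was lost without the second E18 or the third 8w library.

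Ribosomal protein genes parted by compartment. Of 66 tested cytosolic ribosomal protein genes 2 were higher, Rpl3l and Rps2, and 46 lower, with a median of -0.44. Rps2 was called at 0.35, was at 0.00 on the deposited scale, and lost its call without any 1 of the E18 libraries or the second or the third 8w library. Of 45 mitochondrial ribosomal protein genes 30 were higher and 0 lower, with a median of 0.47, and on the deposited scale 15 were higher and 5 lower. Ribosomal protein genes have many near-identical pseudogenes, and how the authors' counting split such reads is unknown.

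**Figure D3:**
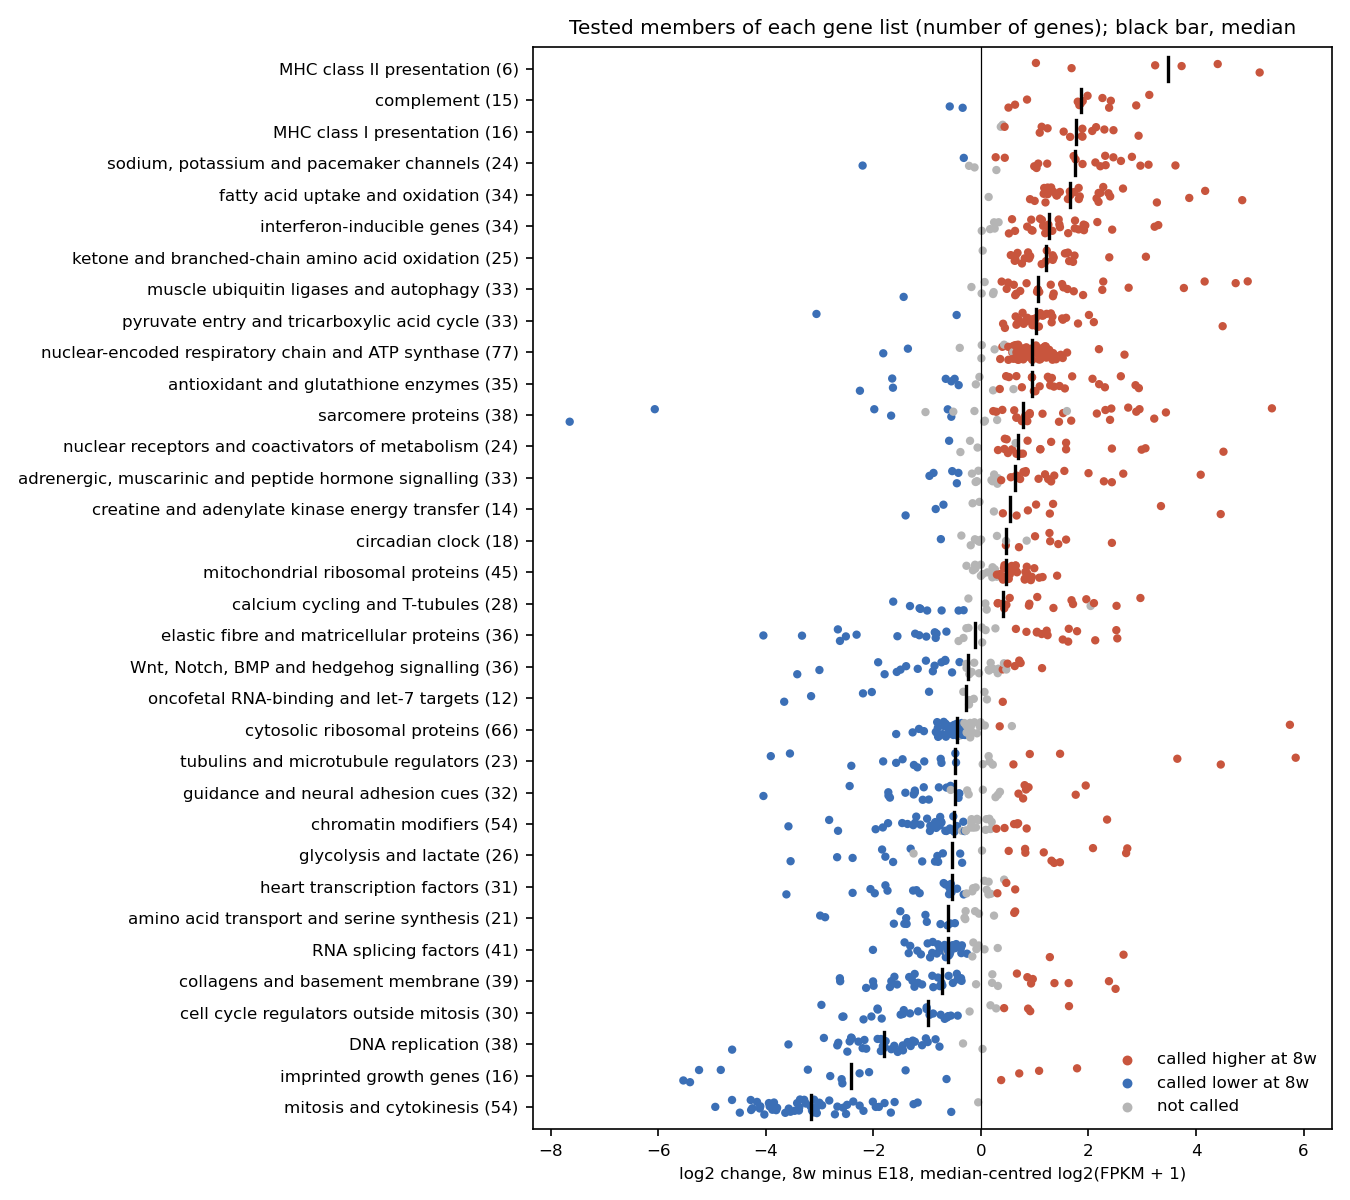
Log2 change (8w minus E18, centred scale) of each tested gene in 34 pathway lists, ordered by the list median (black bar); red points were called higher, blue lower and grey not called. Mitosis, imprinted growth and DNA replication lie at the bottom, with medians of -3.15, -2.41 and -1.80, and antigen presentation, channel and fatty acid lists at the top.

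Cell division genes were lower almost without exception. Of 54 tested genes of mitosis and cytokinesis 53 were lower and 0 higher, with a median of -3.15, and of 38 DNA replication genes 36 were lower and 0 higher, with a median of -1.80. Cdk1, the mitotic kinase, stood at 80.4, 98.2 and 84.2 FPKM at E18 and at 4.26, 3.06 and 2.05 at 8w. Mki67, the proliferation marker, fell from 50.2, 46.8 and 50.3 to 1.66, 2.07 and 1.09. The genes without a call were Pttg1, securin, at 1.70, 42.1 and 62.4 FPKM in the adult libraries (-0.05, and called higher without the first 8w library), Gins4 (-0.33) and Gmnn (0.03). The mitosis list held 0.432% ± 0.0329 of coding FPKM at E18, 0.268% ± 0.0349 at 3d and 0.0353% ± 0.00696 at 8w.

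Regulators around the cycle were less uniform, with 23 of 30 lower and 4 higher. Ccng1, a cyclin induced by p53, rose by 1.64, and Cdkn1a, the inhibitor p21, by 0.92, at 12.3, 15.6 and 24.7 FPKM in the adult libraries against 10.4, 11.7 and 11.2. The inhibitors Cdkn1c (-2.57) and Cdkn3 (-2.96) fell. E2f1 (-1.92), E2f7 (-1.84) and E2f8 (-2.55) fell, and Rb1 was at 0.28 without a call.

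Promoters of 4 division genes are shown because the falls of this group ran together. The windows below are the 140 bases before the annotated start in RefSeq (GRCm38.p6), given 5′ to 3′ on the gene's strand. Capitals mark the searched motifs, which were E2F words (TTTGGCGC, TTTCGCGC or TTTCCCGC) and the cell cycle homology region CHR (TTTGAA), each on either strand. Cdk1 lies on the minus strand at chr10:69352913-69353052, Mcm6, a subunit of the replicative helicase, on the minus strand at chr1:128359706-128359845, Ube2c, a ubiquitin-conjugating enzyme of mitotic exit, on the plus strand at chr2:164769789-164769928, and Kif15, a spindle kinesin, on the plus strand at chr9:122950941-122951080.
Cdk1: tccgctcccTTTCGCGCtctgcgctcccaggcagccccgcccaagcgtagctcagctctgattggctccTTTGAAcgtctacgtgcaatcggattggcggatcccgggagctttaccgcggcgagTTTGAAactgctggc
Mcm6: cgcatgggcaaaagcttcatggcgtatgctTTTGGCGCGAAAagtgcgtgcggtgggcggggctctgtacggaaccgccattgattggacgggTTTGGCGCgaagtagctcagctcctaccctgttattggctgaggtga
Ube2c: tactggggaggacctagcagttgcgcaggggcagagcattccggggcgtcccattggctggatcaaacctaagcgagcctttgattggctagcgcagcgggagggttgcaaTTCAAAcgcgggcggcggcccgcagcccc
Kif15: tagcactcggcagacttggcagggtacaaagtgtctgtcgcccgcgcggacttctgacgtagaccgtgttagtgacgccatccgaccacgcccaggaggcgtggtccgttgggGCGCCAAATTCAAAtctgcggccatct

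In the Mcm6 window 2 E2F words on opposite strands overlap in the first run of capitals, and in the Kif15 window an E2F word and a CHR word join. Promoters of 300 bases were found for 8875 tested genes, some with several, 11439 promoters in all. The shares are of genes with the word in any of their promoters, so a gene with several had more places to hold it. An E2F word was present for 4.16% of all these genes, 6.61% of the genes lower at 8w and 2.58% of those higher. Counted per promoter, the E2F share of all was 3.4%. Among 75 mitosis and replication genes called lower it was present in 25.3%. The CHR word was present in 13.9% of all, 16.5% of the lower, 13.4% of the higher and 50.7% of the 75. For the CCAAT box the shares were 43.3% of all, 45.7%, 43.2% and 68.0%. These shares describe letters in a window, and the 75 genes were listed with their falls known.

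Of the largest rises, Rpl3l and Xirp2 hold a MEF2 word (CTAAAAATA, CTATTTATA or CTATTTTTA on either strand), named for a family of muscle transcription factors. Rpl3l is read on the plus strand at chr17:24732545-24732684 and Xirp2 on the plus strand at chr2:67445862-67446001. The Rpl3l window lies inside the GENCODE span of the gene (chr17:24727820-24736143), before an internal RefSeq start. The Xirp2 window ends where its gene begins. They are shown as windows of a pair of muscle genes among the 12 largest rises. In the Xirp2 window 2 words on opposite strands overlap. The word is not particular to rises. It was present in a promoter of 1.89% of genes higher at 8w, 1.11% of those lower and 1.27% of all. Tnni1, the largest fall, also holds it.
Rpl3l: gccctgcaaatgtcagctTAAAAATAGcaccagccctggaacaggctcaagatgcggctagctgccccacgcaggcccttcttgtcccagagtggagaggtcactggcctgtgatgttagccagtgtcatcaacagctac
Xirp2: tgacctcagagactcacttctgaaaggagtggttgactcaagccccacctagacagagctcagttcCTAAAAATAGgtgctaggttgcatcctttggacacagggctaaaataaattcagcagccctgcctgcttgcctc

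Imprinted growth genes, which are expressed from 1 parental copy in at least some tissues and many of which act on fetal growth, fell with exceptions. Of 16 tested 12 were lower and 4 higher, with a median of -2.41. Igf2, the fetal growth factor (chr7:142650766-142666816), stood at 780, 638 and 750 FPKM at E18 and at 15, 15.1 and 11.9 at 8w. Grb10, which restrains growth factor signalling, fell from 396, 356 and 394 to 31.3, 32.2 and 30. Igf2r, the receptor that clears Igf2, fell by 2.25, and the receptor that signals, Igf1r, fell by 1.45. The 4 that rose were Dcn (1.79), Snrpn (1.08), Impact (0.71) and Gnas (0.38). Ghr, the growth hormone receptor, rose by 1.06, and Igf1 in the heart itself fell by 0.71.

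The RNA-binding proteins Igf2bp3 and Igf2bp1, which bind Igf2 mRNA and mark fetal tissue, stood at 15.6, 15.9 and 17.0 and at 11.9, 10.6 and 10.3 FPKM at E18. At 8w each was at 0.112 FPKM or less. Their list of oncofetal and let-7 target genes had 5 of 12 lower and 1 higher, beside 26.7% and 30.7% of all tested genes. On the deposited scale 9 were lower and 0 higher. Splicing factors were lower in 32 of 41 and higher in 2, which were Rbfox1 (2.65) and Mbnl1 (1.28), both regulators of muscle splicing. Rbm20, which controls titin splicing, stayed within 1.5-fold, at -0.08.

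Transcription and chromatin regulators were on balance lower. Of 31 heart transcription factors 18 were lower and 3 higher, with a median of -0.55, and on the deposited scale 22 were lower and 0 higher. Hey2, a Notch-responsive repressor of the compact ventricle, stood at 67.3, 62.0 and 62.4 FPKM at E18 and at 4.14, 2.26 and 3.22 at 8w. Tbx20 fell by 1.26 and Gata4 by 0.59, and Tbx5 and Mef2c had no call, at 0.07 and -0.16. Of 54 chromatin modifiers 31 were lower and 8 higher, and on the deposited scale 41 and 4. Uhrf1, which guides maintenance DNA methylation, fell by 3.58 and Dnmt1, the maintenance enzyme, by 1.82. Among the 8 that rose, Cbx7 (2.35), Ezh1 (0.85) and Bmi1 (0.69) are Polycomb proteins.

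Collagen genes were mostly lower, and other matrix genes went in both directions. Of 39 collagen and basement membrane genes 27 were lower and 8 higher, with a median of -0.73. Col1a1, the main fibrillar collagen, stood at 121, 97.2 and 117 FPKM at E18 and at 18.7, 21.8 and 16.7 at 8w. Elastic fibre and matricellular genes were 14 higher and 14 lower of 36, beside 30.7% and 26.7% of all tested genes. On the deposited scale 12 were higher and 18 lower. Postn, periostin, fell from 406, 415 and 406 to 34.6, 40.0 and 21.4, and Fbn2, a fetal fibrillin, by 4.04. The proteoglycans Prelp and Ogn rose by 2.13 and 1.64, and Smoc2 by 2.52.

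Signalling cues of the embryo were more often lower. Of 36 genes of Wnt, Notch, BMP and hedgehog signalling 16 were lower and 6 higher (on the deposited scale 21 and 1). Of 32 guidance and neural adhesion genes 18 were lower and 7 higher. Over all tested genes 26.7% were lower and 30.7% higher. Bmp7 stood at 17.7, 19.2 and 18.5 FPKM at E18 and at 0.611, 0.378 and 0.306 at 8w. Ncam1, a neural cell adhesion molecule, fell from 82.5, 75.3 and 86.5 to 2.94, 3.03 and 2.74. Of 33 genes of adrenergic, muscarinic and peptide hormone signalling 19 were higher and 5 lower with a median of 0.64, and on the deposited scale 14 were higher and 9 lower with a median of 0.28. Adra1a, an alpha-1 adrenergic receptor, stood at 0.255, 0.094 and 0.264 FPKM at E18 and at 11.6, 15.1 and 19.1 at 8w. Chrm2, the cardiac muscarinic receptor, rose by 1.55 and Adrb1, the main cardiac beta receptor, by 0.64.

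Genes of antigen presentation and innate immunity were higher nearly throughout. Of 16 tested MHC class I genes 14 were higher, of 6 class II genes 6, of 15 complement genes 13 with 2 lower, and of 34 interferon-inducible genes 29, with medians of 1.77, 3.49, 1.86 and 1.26. H2-K1, a class I heavy chain, stood at 7.72, 8.54 and 7.27 FPKM at E18 and at 47.2, 61.6 and 47.5 at 8w. Cd74, the invariant chain of class II, rose from 0.349, 0.143 and 0.646 to 30.3, 45.2 and 39.2. Clu, clusterin, rose by 3.13, and Iigp1, an interferon-inducible GTPase, by 3.30. H2 genes share sequence with each other, so the split between them is uncertain. Macrophage markers moved with these lists: 11 of 12 were in the table, all 10 tested were higher, and their summed level was 39.8 to 43.3 FPKM at E18 and 153 to 202 at 8w, with none at 0. Lymphocyte markers summed to at most 0.796 FPKM at E18 and 2.76 at 8w. Their part in the rises was not tested.

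Protein turnover and antioxidant genes were also more often higher. Of 33 muscle ubiquitin ligase and autophagy genes 27 were higher and 1, Trim55, lower, and on the deposited scale 22 and 2. Fbxo32, the ligase atrogin-1, stood at 13.3, 14.8 and 11.7 FPKM at E18 and at 53.7, 52.5 and 51.9 at 8w. Of 35 antioxidant genes 24 were higher and 7 lower, beside 30.7% and 26.7% of all tested genes. On the deposited scale 20 of them were higher and 9 lower. Gstt1, a glutathione transferase, rose by 2.94, and the metallothionein Mt3 fell by 2.25. Serine synthesis and amino acid transport went the other way, with 13 of 21 lower and 2 higher, and on the deposited scale 17 and 0. Psat1, an enzyme of serine synthesis, fell by 2.90. Tubulins and their regulators split, 13 lower and 6 higher of 23, beside 26.7% and 30.7% of all tested genes. Stmn1, which destabilizes microtubules, fell from 123, 127 and 129 FPKM to 5.17, 7.27 and 4.75, and Mapt, which stabilizes them, rose by 4.46.

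The libraries were checked against markers of the cells a heart can hold. Cardiomyocyte markers summed to 13774 to 13903 FPKM at E18 and 21591 to 23398 at 8w, with Ttn at 0, and 9 of 11 tested were higher, although under quantile normalization 4 were higher and 4 lower. Markers of fibroblasts (1255 to 1354 and 955 to 1298 FPKM) and endothelium (693 to 815 and 931 to 1209 FPKM) were well above 0, so the RNA was not of cardiomyocytes alone. Epicardial markers fell from 58.0 to 66.8 FPKM to 13.9 to 18.4, and erythroid markers from 3277 to 3571 to 702 to 1584, with all 8 tested genes of each list lower. Lung epithelial markers were at 0.46 FPKM or less in the E18 libraries and in 2 of the 8w libraries and at 104 in the second 8w library, through Sftpc (36.3) and Scgb1a1 (60.9), neither of which limma called, while edgeR and DESeq2 on recovered fragments called both higher.

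Genes at steady levels included abundant ones. The 6 most abundant genes whose interval lay within 1.5-fold were Tpt1, Actn2, Eef2, Rplp0, Sptbn1 and Pkm. Actn2, the Z-disc alpha-actinin, stood at 582, 543 and 566 FPKM at E18 and at 495, 521 and 534 at 8w. It was also called higher on the centred scale, at 0.23 with adjusted p of 0.0472, was not called without any 1 of the 6 compared libraries, and was at -0.13 on the deposited scale. Holding is thus relative to the median gene: Pkm was at 0.02 on the centred scale and at -0.33 on the deposited scale.

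Long noncoding RNAs changed in both directions. Of 3618 tested lncRNA genes 523 (14.5%) were higher and 466 (12.9%) lower, with 273 and 1053 on the deposited scale and 402 and 586 when FPKM was scaled to 1 median before the pseudocount was added. H19, the imprinted transcript beside Igf2 (chr7:142575529-142578143), stood at 1537, 1277 and 1425 FPKM at E18 and at 14.3, 10.7 and 12.2 at 8w. Its log2 change of -6.37 ± 0.16 was the largest of the named lncRNAs. Rian (-3.10), Meg3 (-2.81) and Mirg (-2.04), 3 transcripts of the imprinted cluster that also holds Dlk1, fell together, Meg3 from 89.2, 74.9 and 84.1 to 9.74, 11.0 and 5.24. Airn, read antisense to Igf2r, fell by 1.66, Kcnq1ot1, antisense to Kcnq1, by 0.89, and Nespos, antisense to Gnas, by 2.34. The strand setting of the counting is unknown, so reads of these genes and of their partners cannot be told apart.

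Rises among lncRNAs were led by Neat1, the scaffold RNA of nuclear paraspeckles (chr19:5824708-5845478), at 23.4, 30 and 24.4 FPKM at E18 and 241, 248 and 251 at 8w, a log2 change of 3.56. Its neighbour Malat1 had no call, at 0.32 with adjusted p of 0.168, and was the more abundant at every stage. Plet1os (3.43), Rmst (1.83), Peg13 (1.36) and Gdap10 (1.27) rose from low levels. Entries named Atpase6, Pigy and Metazoa_SRP also rose, and these names are shared with a mitochondrial gene, a coding gene and a repeated small RNA. Snhg1 and Gas5, snoRNA host genes, fell by 1.71 and 0.91. By class, natural antisense lncRNAs had 84 higher and 39 lower of 495, and intergenic ones 232 and 238 of 1477. Over all tested lncRNA genes 14.5% were higher and 12.9% lower. The class counts are from the centred scale alone, and the balance of all lncRNA genes turned with the scaling.

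**Figure D4:**
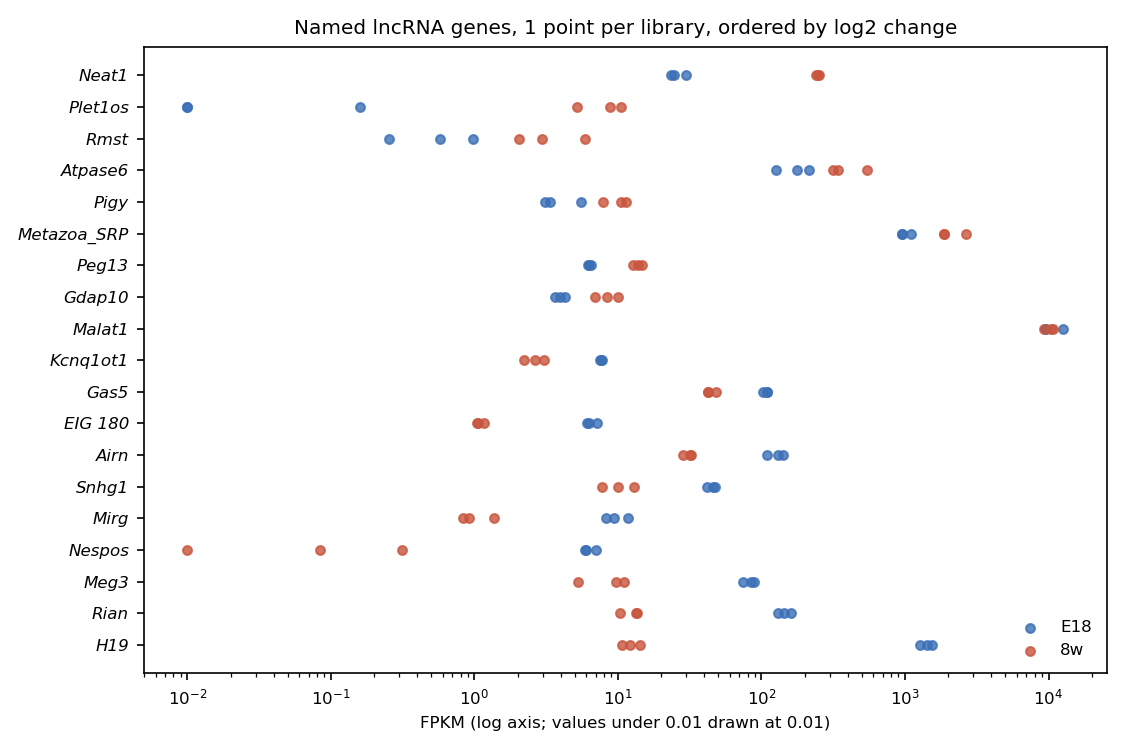
FPKM of the named lncRNA genes on a log axis, 1 point per E18 (blue) and 8w (red) library, ordered by log2 change. H19 goes from 1277 to 1537 FPKM at E18 to 10.7 to 14.3 at 8w, Neat1 reaches 241 to 251, and the stages overlap for Malat1.

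Circular RNAs, which form when a splice donor joins an upstream acceptor, were measured by the few reads that cross that joint. Total junction reads relative to sequenced fragments overlapped between the stages (n = 3 each, exact two-sided permutation p = 0.7). Of 625 tested circRNAs 37 (5.92%) were called, 17 higher and 20 lower (edgeR, adjusted p under 0.05), and 124 had an unadjusted p under 0.05. DESeq2 called 18. The number fell to 13 without the first E18 library, 19 and 18 without the second and the third, 23 without the first 8w library and 14 without the third. Of the 37, 10 were called in every leave-out, and 5 of these 10 come from Ttn.

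Titin circles went in both directions. Of 24 tested circRNAs of Ttn, 4 were higher and 2 lower. The circle of exons 87 to 120 (chr2:76857904-76881839, minus strand, numbered on GENCODE transcript ENSMUST00000099981 with 347 exons) had 6, 6 and 5 reads at E18 and 189, 184 and 160 at 8w, a ratio of 26.6 relative to all junction reads of each stage (95% interval 16.5 to 46.1, counting error only). The circle of exons 86 to 120 had 24, 11 and 17 and then 190, 117 and 186 reads, a ratio of 8.05 (6.04 to 10.9). Both used the end of exon 120 as donor, as did the rarer circle of exons 77 to 120 (1, 1 and 1, then 12, 3 and 15 reads), whose call was lost without the first or the third library of either stage. The circle of exons 106 to 112 rose 3.47-fold.

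The falling circles lie at or after exon 120. The circle of exons 125 to 129 (chr2:76853605-76856366) had 13, 1 and 16 reads at E18 and 0, 0 and 0 at 8w, and the 95% interval of its 8w to E18 ratio (counting error only) ended at 0.111. The circle of exons 120 to 142 (chr2:76847388-76857987) had 6, 6 and 9 and then 0, 0 and 0 reads, with an interval that ended at 0.163. Exon 120 was thus the last exon of the 3 rising circles above and the first of this one. The joints are shown from GENCODE vM21 transcripts (GRCm38), with 25 bases before the joint in lower case and 25 after it in capitals.
Ttn exons 87 to 120: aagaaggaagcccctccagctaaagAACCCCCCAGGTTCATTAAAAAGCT
Ttn exons 86 to 120: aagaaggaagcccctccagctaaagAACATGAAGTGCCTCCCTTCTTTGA
Ttn exons 106 to 112: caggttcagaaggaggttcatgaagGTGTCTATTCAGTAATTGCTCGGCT
Ttn exons 125 to 129: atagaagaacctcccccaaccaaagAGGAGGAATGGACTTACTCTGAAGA
Ttn exons 120 to 142: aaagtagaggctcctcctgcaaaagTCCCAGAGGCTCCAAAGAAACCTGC

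Most other called circles had a host gene called in the same direction. Of the 17 higher, 10 had a host gene called higher and 0 a host called lower. Of the 20 lower, 14 had a host called lower and 0 a host called higher. Over all tested coding genes 30.7% were called higher and 26.7% lower. The host rises of Zranb1 (0.33) and R3hcc1l (0.32) were smaller than the 0.356 by which the deposited scale lowers each change. Ryr2 exons 59 to 62 rose from 0, 4 and 1 reads to 11, 17 and 7, a call lost without the first or the third E18 library or the first or the second 8w library, and its host rose by 1.35. A circle assigned to Mb rose from 1, 1 and 0 to 9, 26 and 13. The circle assigned to Myh6 (5, 6 and 4, then 24, 46 and 32 reads) has ends within Myh6 and Myh7, which are close in sequence, so its source is uncertain. Arhgap5 was an exception among the falls, with 17, 16 and 20 and then 4, 2 and 2 reads while its host was at 0.01 without a call. Sorbs2 fell from 29, 20 and 28 to 6, 5 and 5, and Arid1a from 19, 15 and 8 to 4, 0 and 2.

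Of the circles with no read at E18, Cpeb3 exons 8 to 10 had 5, 6 and 13 at 8w, with a ratio interval that began at 5.11, a call lost without the third 8w library. Arhgap21 (6, 7 and 4) and the longer circle of Agtpbp1 (5, 5 and 7) each had an interval that began at 3.51 and lost their calls without any 1 of the E18 libraries, and that of Agtpbp1 also without the third 8w library. Rbp7 had 16, 0 and 0 reads and Arhgap10 had 3, 2 and 9, so the former rests on 1 library. The call for Rbp7 was lost without any 1 of the E18 libraries, and that for Arhgap10 in 6 of 9 fits that each left out 1 library. Circles of Casc5, Cacna1d and Malat1 had 3 to 6, 3 to 4 and 2 to 5 reads per library at E18 and none at 8w, and that of Fat3 had 1 read at 8w. Each of these 4 lost its call in at least 5 of the 9 leave-outs.

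**Figure D5:**
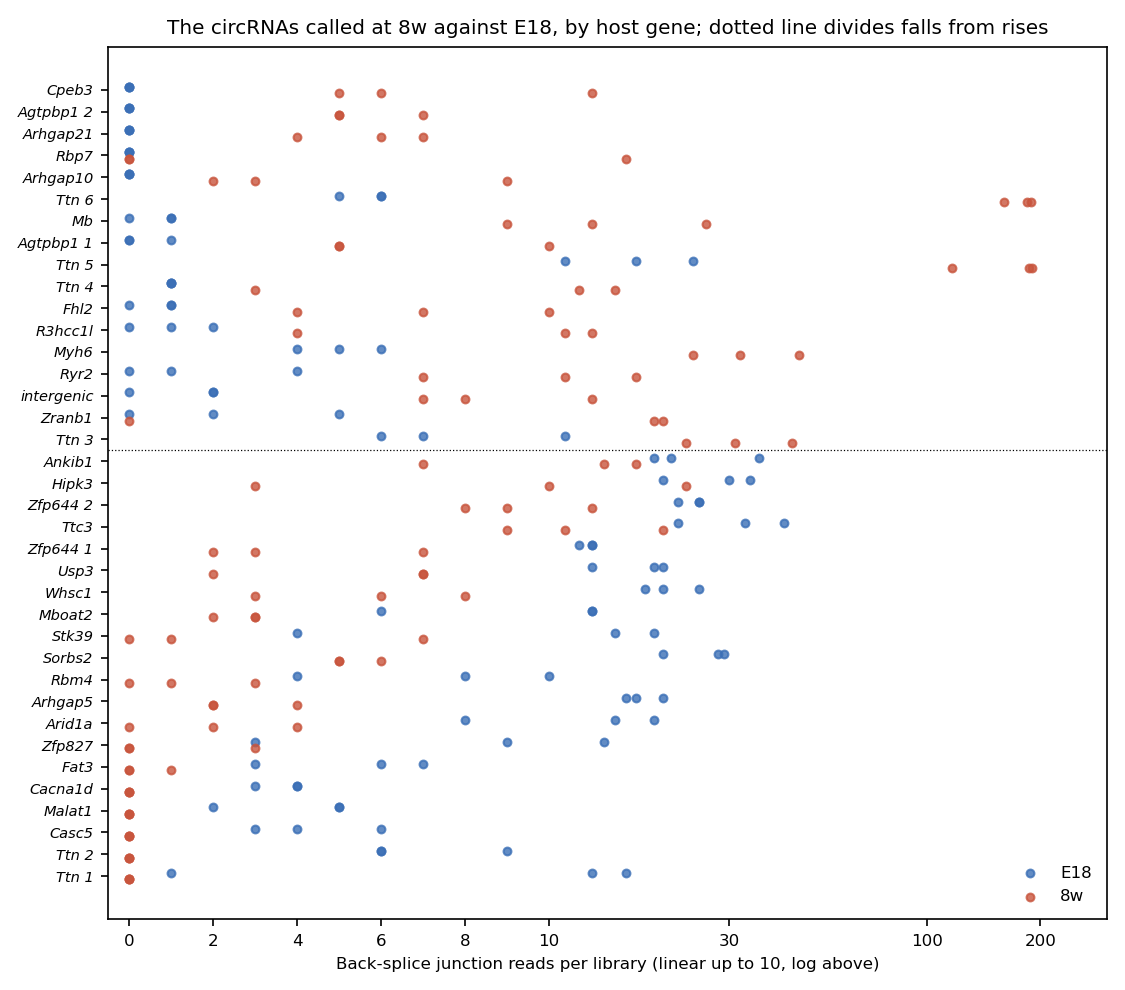
Junction reads per E18 (blue) and 8w (red) library for the 37 called circRNAs, named by host gene and numbered where a host has several, on an axis that is linear up to 10 reads and logarithmic above. The 2 Ttn circles with 117 to 190 reads in each adult library stand apart, and the others have at most 46 reads in any compared library.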

How the data were processed

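Total RNA of 9 mouse heart libraries (3 each at E18, 3d and 8w) was sequenced with a SMARTER kit, per the labels' protocols. The submitters' processing notes name cutadapt 1.9.1, HISAT2 2.0.4, Cuffdiff, GRCm38 and mm10. The file headers name FPKM columns for coding and lncRNA entries, which the authors computed. Beside them the authors' tables hold estimated counts, a fixed step per library times fragments, of which 94.6% to 95.3% at low values lay within 0.01 of a whole multiple. For circRNAs the authors' table gives counts of junction reads, and the caller is unknown. A further 9 per-sample columns of that table were not used.

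Entries were summed to 22481 coding genes, and 13 on chrM and 376 on chrY were left out. limma 3.58.1 with trend was fitted to log2(FPKM + 1), centred per library on the median tested coding gene, over all 9 libraries, for genes with an average of 1 FPKM or more (lncRNA 0.5). The pseudocount of 1 understates changes of low genes. circRNAs with at least 10 reads were tested with edgeR 4.0.16 (quasi-likelihood, TMM). p-values were adjusted by Benjamini-Hochberg over all tested features. As an added alternative, edgeR on the recovered whole fragments called 3795 coding genes higher and 3653 lower. Other alternatives were DESeq2 1.42.0, deposited scale, quantile normalization, other filters and pseudocounts, a replicate block and leaving out each library.

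Members and lists were chosen with earlier results of these data known. The genes named are the 12 largest rises and falls (no overlap, the higher stage averaging 10 FPKM or more, no clone names or globins), all pairs, up to 2 rises and 2 falls per list (at least 5 FPKM), 6 steady genes, 8 lncRNA rises and falls (at least 2 FPKM) with 11 known lncRNAs where present, and 6 circRNA rises and falls; others were named after their values were seen. Promoters are from RefSeq. Intervals cover counting error only. A few results are not reported here.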

Additional observations from a re-analysis of the deposited data

How the results depend on the processing

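On the deposited scale 2117 coding genes were higher and 5638 lower, and 273 and 1053 lncRNA genes. With no filter 7812 coding and 6331 lncRNA genes were higher and 6988 coding genes held, because centring lifts genes at 0 in the adult libraries. A stricter filter left 256 higher lncRNA genes. For circRNAs DESeq2 called 18, a minimum of 5 reads 21, and a fit to the E18 and 8w libraries alone 18. Leaving out 1 library gave 3237 to 3936 higher and 2715 to 3450 lower coding genes, 354 to 564 and 321 to 512 lncRNA genes, and 13 to 34 circRNAs. Of 159 called named coding genes 152 kept their call in every leave-out. Directions turned on the deposited scale for Cacna1c (-0.04), Rps2 (0.00), Actn2 (-0.13), Eef2 (-0.30), Sptbn1 (-0.27) and Pkm (-0.33), and under quantile normalization for Myl3 (-0.19), Myl2 (-0.10), Actc1 (-1.01), Ckm (-0.30), Casq2 (-0.02), Rps2 (-0.05), Tpt1 (-0.88), Actn2 (-0.40), Eef2 (-0.43), Sptbn1 (-0.31) and Pkm (-0.44). Same-numbered libraries did not deviate together (Pearson r 0.010 to 0.016 across genes), so the numbers do not pair them; with the replicate number as a block 3537 and 3092 coding genes, 443 and 386 lncRNA genes and 27 circRNAs were called. The compared libraries held 3281 to 4494 junction reads each.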
